A study of Mus musculus with 109 samples.

Results

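Glycolysis turns glucose into pyruvate, and lactate dehydrogenase can reduce that pyruvate to lactate. Hexokinases trap glucose in the cell, phosphofructokinase commits the sugar to the pathway, aldolase splits it, and phosphoglycerate kinase and pyruvate kinase make ATP from the resulting intermediates. Granule cell progenitors of the postnatal cerebellum divide in response to Sonic hedgehog in the external granule layer, and aerobic glycolysis with high hexokinase 2 is a known trait of these dividing cells. Doublecortin (Dcx) is a microtubule-binding protein of newly postmitotic neurons, and Mki67 encodes a chromosome-coating protein of cycling cells.

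Transcripts of 10 glycolytic enzymes were described in single cells of the mouse cerebellum. The members are Hk1, Hk2, Pfkp, Pfkl, Aldoa, Aldoc, Pgk1, Eno1, Pkm and Ldha, and they were chosen by their symbols. All 10 symbols were found among the 15973 genes of the raw count table. Cerebella at postnatal day 7 were the source of the cells; the labels give the strain as C57BL/6, whereas the methods of the study name ICR pups. The cells were enriched on a Percoll gradient and captured on C1 Fluidigm chips, no treatment is named, and each of the 109 samples is the library of 1 cell. The titles place the cells in 6 library groups of 18 or 19 cells, and since no label ties a group to an animal, a culture or a chip, the p-values below measure the spread between library groups, which may be technical. Depth had a median of 3604790 counts per cell, and 1 cell of library group 2 had 15071 counts while every other cell had at least 1110180. A cell had a median of 4312 genes with a count, and 2 cells stood apart with 13533 and 12684 genes against at most 6420 in the others. No 2 cells held identical counts, and no caller of doublets was run. Levels are given in CPM, which is the count times 1000000 divided by the total of the cell; these libraries carry no molecular identifiers, so intervals on shares of cells cover counting error only.

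Cells were compared by Mki67 and by Dcx. Mki67 was at 100 CPM or more in 32 cells (Mki67-high) and under 10 CPM in 75 cells (Mki67-low). The highest cell under the lower limit had 9.27 CPM, the lowest cell above the upper limit had 132 CPM, and the 2 cells between the limits, at 21.3 and 66.4 CPM, were left out. Each library group held 3 to 8 Mki67-high cells and 10 to 15 Mki67-low cells. By Dcx, the top tertile held 37 cells at 2433 CPM or more (Dcx-high) and the bottom tertile 36 cells at 351 CPM or less (Dcx-low). Of the 32 Mki67-high cells, 17 were Dcx-low and 3 were Dcx-high, so these comparisons share cells. To set Dcx apart from cycling, the 75 Mki67-low cells were also divided at their median Dcx level of 1781 CPM, into 37 cells above it and 38 at or below it.

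The cell state labels were checked against other genes. Top2a, a topoisomerase of dividing cells, averaged 8.26 on the log2(CPM + 1) scale in Mki67-high cells and 2.50 in Mki67-low cells, and was higher in 6 of 6 library groups. Birc5, which encodes the mitotic protein survivin, averaged 4.82 against 0.32 on that scale, also higher in 6 of 6. These are from a list of 9 S phase and mitosis genes, of which 6 had higher means in 6 of 6. That pattern was found for 7.88% of all genes tested. Mcm2, Mcm3 and Cdk1 did not have it, and by sums they were higher in 3, 4 and 5 of 6 library groups. Summed CPM of 4 postmitotic granule cell markers had a median of 8498 in Dcx-high cells and 896 in Dcx-low cells. Dcx itself is one of the 4, with medians of 4815 and 38.1 CPM, so this sum is no independent check. Of the others, Sema6a and Tubb3 sums were higher in Dcx-high cells of 5 of 6 library groups. Rbfox3 sums were higher in 4 of 6, and their mean was lower, at 159 against 233 CPM. At least 4 of 8 granule lineage markers were at 50 CPM or more in 69 of the 109 cells. Astroglial genes were present as well: 6 cells had at least 5 of 10 astroglial markers at 50 CPM or more, 4 of them Mki67-high and 2 Mki67-low, and none was Dcx-high. Summed astroglial markers ranged from 0.399 to 22692 CPM in Mki67-high cells, with a median of 408, and from 0.321 to 41709 CPM in Mki67-low cells, with a median of 209. Oligodendrocyte lineage markers summed to a median of 58.9 CPM in Mki67-high and 4.48 CPM in Mki67-low cells, and 3 cells, all Mki67-high, had at least 2 of 4 microglial markers at 50 CPM or more; their part in the values given here was not tested. At least 2 of 3 interneuron markers were at that level in 7 cells, all of them Mki67-low, and 6 of those were Dcx-high. The deepest-detected cell, with 13533 genes, was one of the 6 astroglial-gene cells and the single cell with all 10 enzymes at 10 CPM or more. Mki67-high cells had more detected genes than Mki67-low cells, with medians of 4968 and 4193, and this held in 6 of 6 library groups (exact sign-flip permutation test, two-sided, p = 0.03125, the smallest this design allows).

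The bases upstream of the transcription start are shown for Hk2, Aldoa, Pgk1 and Ldha, because these are the members with a window that lies outside annotated exons and holds ACGTG, the core of the hypoxia response element that many glycolytic genes carry. RefSeq sequences of the GRCm38.p6 build were matched for all 10 members, in 18 windows of 250 bases, one before each RefSeq start. The start of the principal GENCODE transcript lies directly after the printed windows of Hk2, Aldoa and Pgk1 and is 35 bases from that of Ldha. Each is printed 5′ to 3′ on the strand of the gene, and capitals mark ACGTG found on either strand. The longer E-box motif, CACGTG, overlaps it and reads alike on both strands. The windows are chr6:82774455-82774704 on the minus strand for Hk2, chr7:126799255-126799504 on the minus strand for Aldoa, chrX:106186850-106187099 on the plus strand for Pgk1 and chr7:46845554-46845803 on the plus strand for Ldha.
Hk2: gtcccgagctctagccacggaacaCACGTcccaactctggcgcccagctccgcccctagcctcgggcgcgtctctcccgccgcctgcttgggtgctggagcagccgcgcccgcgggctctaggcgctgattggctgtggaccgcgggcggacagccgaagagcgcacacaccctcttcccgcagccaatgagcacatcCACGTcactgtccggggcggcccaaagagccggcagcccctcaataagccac
Aldoa: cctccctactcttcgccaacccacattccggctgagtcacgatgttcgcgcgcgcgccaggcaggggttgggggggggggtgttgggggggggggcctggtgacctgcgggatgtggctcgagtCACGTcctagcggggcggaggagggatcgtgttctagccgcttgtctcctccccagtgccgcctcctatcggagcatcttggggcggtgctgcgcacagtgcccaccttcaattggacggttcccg
Pgk1: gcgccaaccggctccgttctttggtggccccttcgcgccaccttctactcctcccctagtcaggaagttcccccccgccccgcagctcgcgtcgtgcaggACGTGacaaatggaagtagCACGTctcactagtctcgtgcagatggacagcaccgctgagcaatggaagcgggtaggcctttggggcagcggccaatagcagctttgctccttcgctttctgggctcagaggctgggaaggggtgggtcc
Ldha: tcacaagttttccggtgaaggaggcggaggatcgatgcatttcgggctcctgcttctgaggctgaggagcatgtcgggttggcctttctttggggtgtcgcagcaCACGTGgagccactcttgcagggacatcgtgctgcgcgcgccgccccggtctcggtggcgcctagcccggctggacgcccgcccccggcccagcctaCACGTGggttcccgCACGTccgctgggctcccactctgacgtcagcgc
Hk2 and Pgk1 each held 2 marked stretches, Aldoa held 1, and Ldha held 3, of which 2 were the E-box. The shorter motif was present in 6 of the 18 member windows, which belong to 5 members, the fifth being Pkm. The printed Aldoa window overlaps another Aldoa window that holds the same match, so this match is counted in both. The E-box was present in 1 of the 18. Among all 32851 windows of the same length, 16.6% held the shorter motif and 6.02% the E-box. No match was found in the windows of Hk1, Pfkp, Pfkl, Aldoc and Eno1. A match is a description of the letters and no binding was measured here.

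Aldoa, Pkm, Eno1 and Ldha had the most widespread transcripts. Aldoa, an aldolase at chr7:126795234-126800751, and Pkm, the pyruvate kinase gene at chr9:59656368-59679375, each had a count in 97 of 109 cells, or 89.0%. Eno1, an enolase at chr4:150236721-150248879, had a count in 87 cells, and Ldha, the A subunit of lactate dehydrogenase at chr7:46841475-46855627, in 79 cells. Many of these counts were low. At 10 CPM or more, Eno1 was present in 63 cells (57.8%, 95% Wilson interval 48.4 to 66.6%), Pkm in 58, Ldha in 46 and Aldoa in 41.

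The other 6 enzymes reached 10 CPM in fewer cells, both hexokinases and both phosphofructokinases among them. Hk2, a hexokinase bound to the outer mitochondrial membrane at chr6:82725025-82774454, had a count in 49 cells but reached 10 CPM in 13, where it lay between 23.5 and 2658 CPM. Pfkp, the platelet-type phosphofructokinase at chr13:6579768-6648777, reached 10 CPM in 11 cells and 2627 CPM in 1. Pfkl, the liver-type phosphofructokinase at chr10:77986947-78010083, reached 10 CPM in 9 cells. Aldoc, the aldolase typical of brain astrocytes and of Purkinje cells, at chr11:78322968-78327781, did so in 6 cells, 4 of which carried astroglial genes. Hk1, the hexokinase most tissues use, at chr10:62268855-62379908, did so in 4 cells. Pgk1, the phosphoglycerate kinase at chrX:106187100-106203699, did so in 20 cells with no value above 281 CPM.

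Per kilobase of exon, Ldha had the highest level among the members at 75.6 ± 49.8 CPM per kb (SD over n = 6 library groups). Aldoa followed at 69.1 ± 32.9, Pkm at 56.6 ± 30.7 and Eno1 at 20.6 ± 16.1 CPM per kb. The remaining order was Hk2 at 14.4, Aldoc at 11.8, Pgk1 at 4.80, Pfkp at 3.49, Pfkl at 1.80 and Hk1 at 0.259 CPM per kb. The SD of Aldoc was 18.6 CPM per kb and 1 cell held 69.0% of its CPM; without the cells carrying astroglial genes Aldoc was at 2.002 CPM per kb, below Pgk1 at 5.04 and Pfkp at 3.51. Among the 9 neighbouring pairs in this order, Pkm against Eno1 was the one pair ordered alike in 6 of 6 library groups (exact sign-flip permutation test, two-sided, p = 0.03125 before any adjustment for the 9 pairs). The other neighbours did not differ beyond their spread. Shared sequence limits the order, since 53.9% of the 50-base stretches of Pgk1 transcripts, 26.0% of Eno1 and 25.8% of Pkm also occur in transcripts of other genes, against 0% for Hk2 and Aldoc; how reads with several matches were counted is not given in the sources used here. Hk1, Hk2, Pfkp and Aldoa overlap a gene on the opposite strand and Pkm one on its own strand, and without strand those reads cannot be told apart.

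**Figure D1:**
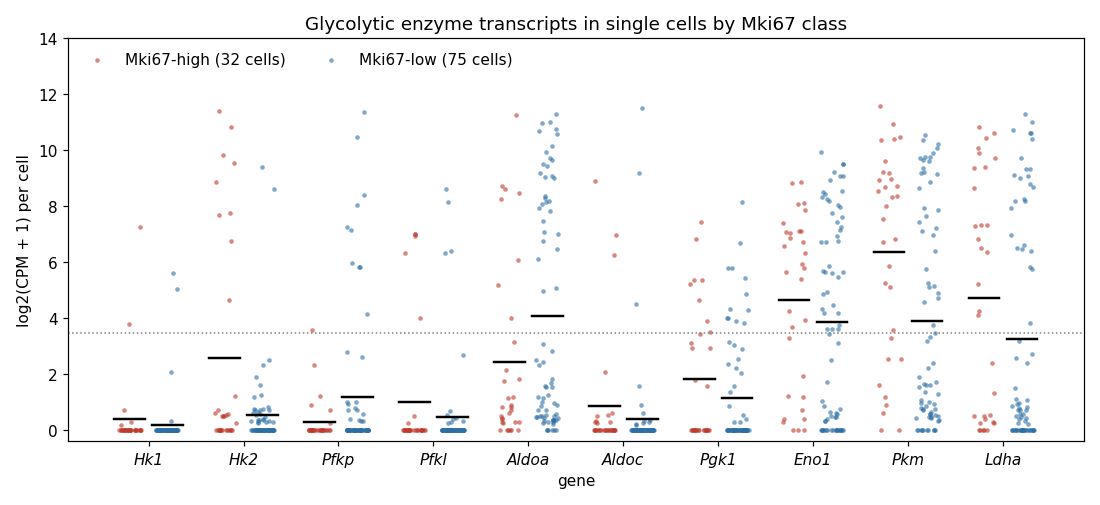
Level of each enzyme transcript in single cells, as log2(CPM + 1) on the vertical axis, with Mki67-high cells in red (32) and Mki67-low cells in blue (75). Points are cells, black bars are means over cells and the dotted line is 10 CPM; Hk2 is above that line in 9 red and 2 blue cells, and Pfkp in 1 red and 10 blue cells.

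Hk2 was the member whose level was higher in Mki67-high than in Mki67-low cells of every library group. For each library group, the reads of all cells in a class were added up, and these sums were divided by their totals. Hk2 stood at 542, 625.5, 109, 317, 11.05 and 140 CPM in the Mki67-high sums of library groups 1 to 6. In the Mki67-low sums it stood at 41.1, 0.280, 15.1, 0.438, 0 and 0.896 CPM. The classes overlapped, since the lowest Mki67-high sum was below the 2 highest Mki67-low sums, but the order was the same inside each library group. Averaged over cells as log2(CPM + 1), Hk2 was at 2.91 ± 1.32 in Mki67-high and 0.51 ± 0.42 in Mki67-low cells (SD, n = 6 library groups). The difference of 2.39 ± 1.16 on that scale was above 0 in 6 of 6 library groups, as it was for 7.88% of the 9084 genes tested. The exact sign-flip permutation test gave p = 0.03125, two-sided, the smallest that 6 groups allow, and 0.345 after Benjamini-Hochberg adjustment over all genes tested, so no gene could pass 0.01 by this test. The mean over cells weighs rare high cells; by the median over cells the Hk2 difference was 0.79 and above 0 in 4 of 6 library groups.

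The share of cells with Hk2 differed in the same direction. At 10 CPM or more, Hk2 was found in 9 of 32 Mki67-high cells (28.1%, 95% Wilson interval 15.6 to 45.4%) and 2 of 75 Mki67-low cells (2.67%, interval 0.734 to 9.21%). Both cells between the Mki67 limits also carried it, one of them the cell with 15071 counts. The share was higher in Mki67-high cells in 6 of 6 library groups, as for 5.92% of genes tested. Without the 6 cells carrying astroglial genes it was 5 of 28 against 1 of 73 cells, and higher in Mki67-high cells in 4 of 6 library groups, since groups 3 and 5 then held no Hk2 cell at 10 CPM. The log2 difference without them was 1.98, above 0 in 6 of 6 library groups, but at 0.057 in group 3 and 0.17 in group 5 it came from levels under 10 CPM. With every cell thinned to 1110180 counts it was 9 of 32 against 2 of 75 cells.

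In the test on sums, edgeR's quasi-likelihood test with Benjamini-Hochberg adjustment called 2 of 9084 genes (0.022%) at an adjusted p under 0.01, and neither was a member. These were Cdc20 and Tacc3, named after their values were seen, which encode an activator of the anaphase-promoting complex and a spindle protein, and both were higher in Mki67-high cells. With library group as a replicate block edgeR called 0 genes, at a lowest adjusted p of 0.0286 and with 602 at an unadjusted p under 0.05, and with 1 library group left out it called 0 to 1. Of the 10 members, 9 passed the filter on low counts, and Hk1 did not. Hk2 had a log2 fold change of 5.05 ± 1.68 (SE) with an adjusted p of 0.487 by edgeR. Over 19 alternative analyses, on sums, group means or single cells, its adjusted p by edgeR, DESeq2 or limma lay between 0.000217 and 0.781. The lowest came from single cells, which treats the cells of a library group as replicates. It was under 0.01 in 2 of them, DESeq2 on the sums and DESeq2 on single cells. These called 376 of 10810 and 1573 of 9153 genes with an adjusted p. The biological coefficient of variation between sums was 172%.

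Pfkp, the other member with an unadjusted p under 0.05, had the opposite sign. It stood between 0 and 2.25 CPM in the 6 Mki67-high sums, with a median of 0.289. In the Mki67-low sums the lowest was 0.272, the median 25.1 and the highest 159 CPM. Mki67-low sums were the higher ones in 5 library groups, and group 3 was the exception. The log2 fold change was -6.43 ± 1.92 (SE), with an adjusted p of 0.428 by edgeR's quasi-likelihood test. Pfkp reached 10 CPM in 1 of 32 Mki67-high and 10 of 75 Mki67-low cells. That Mki67-high cell, at 10.7 CPM in library group 3, was the astroglial-gene cell with 13533 detected genes. A single Mki67-low cell, at 2627 CPM, held 51.4% of the Pfkp CPM added over the 75 Mki67-low cells. Unadjusted p-values under 0.05 were found for 7.33% of genes, 2.94% in the direction of Hk2 and 4.39% in that of Pfkp.

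Pkm and Ldha, at the pyruvate end of the pathway, had higher mean log2 values in Mki67-high cells of 5 of 6 library groups. Pkm sums ranged from 173 to 1152 CPM with a median of 314 in Mki67-high cells and from 4.46 to 362 CPM with a median of 189 in Mki67-low cells, so the classes overlapped. Its difference was 2.60 ± 2.38 on the log2(CPM + 1) scale (exact sign-flip permutation p = 0.09375, two-sided). Ldha sums ranged from 158 to 571 CPM against 62.8 to 436 CPM, again overlapping, and its difference was 1.29 ± 1.44 (exact sign-flip permutation p = 0.09375, two-sided). For both genes the sign-flip permutation p was 0.447 after adjustment over all genes tested. Of those genes, 75.6% had a difference above 0. By sums, the log2 fold changes were 0.99 ± 0.80 for Pkm and 0.02 ± 0.71 for Ldha (SE), with adjusted p of 0.814 and 0.997 by edgeR.

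The remaining enzymes had no common direction between the Mki67 classes. Aldoa was lower in Mki67-high cells of 5 library groups, by -1.41 ± 1.84 on the log2(CPM + 1) scale. Its Mki67-high sums ran from 0.973 to 667 CPM and its Mki67-low sums from 102 to 470 CPM. Eno1 differed by 0.84 ± 2.98, the widest spread of any member, and Pgk1 by 0.78 ± 1.29 on that scale. Pfkl, Aldoc and Hk1 differed by 0.29, 0.38 and 0.26, each less than its SD over library groups. Over the 10 members, the difference was above 0 for 8 and its median was 0.58, beside 75.6% of all genes tested with a median of 0.43. By sums, 5 of 9 members had a log2 fold change above 0, beside 45.2% of genes tested.

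**Figure D2:**
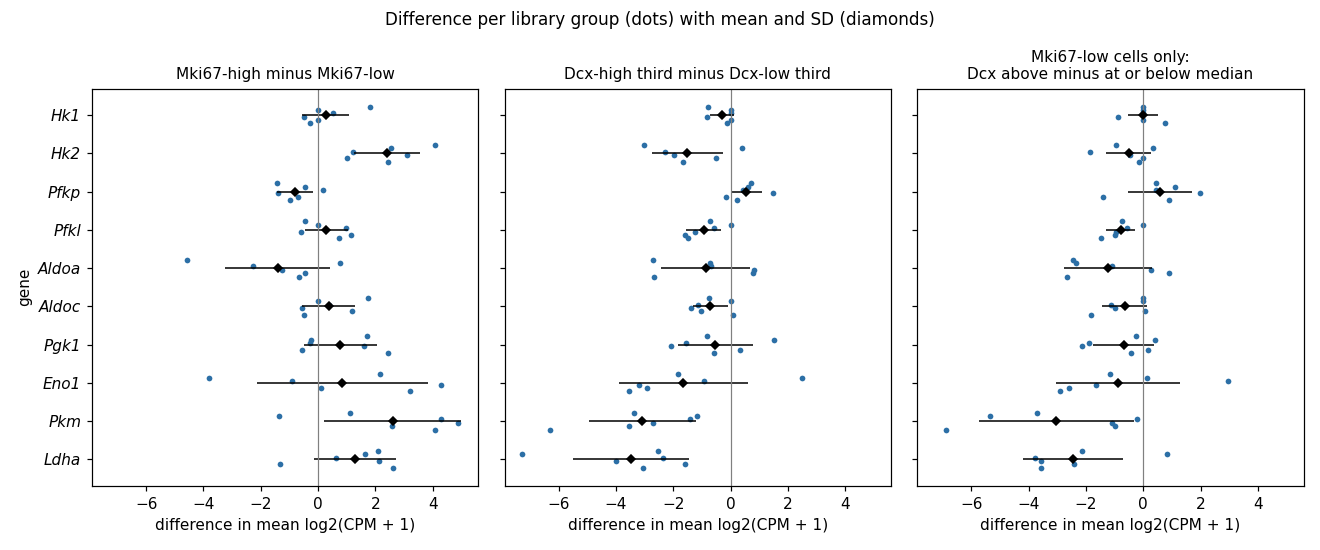
Difference in mean log2(CPM + 1) between cell classes (horizontal axis) for each enzyme (rows), with Mki67-high minus Mki67-low cells on the left, Dcx-high minus Dcx-low cells in the middle, and above-median minus at-or-below-median Dcx among Mki67-low cells on the right. Dots are the 6 library groups and diamonds with bars are their mean and SD; all 6 dots lie above 0 for Hk2 on the left, and below 0 for Pkm in the middle and on the right and for Ldha in the middle.

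Against Dcx, Pkm and Ldha were the members with a lower mean log2(CPM + 1) in Dcx-high cells of every library group. Pkm stood at 22.4, 162, 132, 70.4, 45.9 and 5.82 CPM in the Dcx-high sums of library groups 1 to 6. In the Dcx-low sums it stood at 351, 494, 358, 305, 309 and 770 CPM. The classes did not overlap: the highest Dcx-high sum was below the lowest Dcx-low sum. The share of all genes tested with sums that do not overlap is not given here, so how unusual this is cannot be told. On the log2(CPM + 1) scale Pkm averaged 2.73 in Dcx-high and 5.83 in Dcx-low cells, a difference of -3.09 ± 1.86 that was below 0 in 6 of 6 library groups. Ldha averaged 2.17 against 5.64 on that scale, a difference of -3.47 ± 2.03 that was also below 0 in 6 of 6. Of all 7094 genes tested, 4.17% were lower in the Dcx-high cells of every library group. For both genes the exact sign-flip permutation test gave p = 0.03125, two-sided, and 0.482 after adjustment over all genes tested. By sums the Ldha classes overlapped, from 0.148 to 552 CPM in Dcx-high cells and from 96.0 to 1131 CPM in Dcx-low cells. Ldha sums were higher in Dcx-low cells of 5 of 6 library groups. The largest Ldha difference in mean log2(CPM + 1), -7.28 in library group 2, rested on 2 Dcx-low cells. The highest cell held 30.6% of the Ldha CPM added over all 37 Dcx-high cells.

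Fewer Dcx-high cells carried either transcript. Pkm was at 10 CPM or more in 12 of 37 Dcx-high cells (32.4%, interval 19.6 to 48.5%) and 26 of 36 Dcx-low cells (72.2%, interval 56.0 to 84.2%). Ldha was at that level in 7 of 37 Dcx-high cells (18.9%, interval 9.48 to 34.2%) and 21 of 36 Dcx-low cells (58.3%, interval 42.2 to 72.9%). The mean share per library group was lower in Dcx-high cells in 6 of 6 groups for both, as for 2.33% of genes tested.

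Hk2, Hk1, Pfkl and Aldoc were not found at 10 CPM or more in any Dcx-high cell. Over all 109 cells they reached that level in only 13, 4, 9 and 6 cells. The part of this rarity in their absence was not tested, and the share of all genes absent from these cells is not given here. By 3 counts of the total, 0 of 37 cells allows a share of up to 8.11%, and the upper Wilson limit is 9.41%. Hk1 had no count at all in these cells. Hk2 sums stayed between 0.0737 and 0.620 CPM in Dcx-high cells and ran from 0 to 315 CPM, with a median of 78.4, in Dcx-low cells. Its log2 difference of -1.51 ± 1.25 was below 0 in 5 of 6 library groups, and in 4 of 6 without the cells carrying astroglial genes. The Hk2 result depended on where Dcx was cut. Dcx reached 2326 CPM in a cell with Hk2 at 10 CPM or more, close under the limit of 2433 CPM. With Dcx limits of 1000 CPM or more against under 100 CPM, the edgeR fold change of Hk2 on sums reversed its sign. Summed astroglial markers had medians of 183 CPM in Dcx-high and 544 CPM in Dcx-low cells, with ranges of 0.555 to 3670 and 0.321 to 33177 CPM; Hopx and Mlc1 were at 0 in every Dcx-high cell. The part of the astroglial-gene cells in the Aldoc and Pfkl values was not tested.

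By edgeR none of the 7 members that passed the filter was called against Dcx, and neither was any other gene (0% of 7094; 410, or 5.78%, had an unadjusted p under 0.05). DESeq2 on the same sums called 520 of the 8623 genes with an adjusted p. Among them were Hk2 and, of the members that edgeR's filter removed, Hk1, Pfkl and Aldoc, all lower in Dcx-high cells. Limma called 0. Pkm had a log2 fold change of -2.41 ± 0.96 (SE) and an adjusted p of 0.733, and Hk2 one of -8.42 ± 2.14 and an adjusted p of 0.459, by edgeR's quasi-likelihood test. The sign for Hk2 reversed with other Dcx limits, as given above. Ldha had a log2 fold change of -1.08 ± 1.21 and an adjusted p of 0.976 by the same edgeR test. Unadjusted p-values under 0.05 in this direction were found for 3.06% of genes tested. On the log2(CPM + 1) scale the difference was below 0 for 9 of the 10 members, beside a difference above 0 for 39.6% of all genes tested. The median over members was -0.90 and that over all genes tested -0.20. Pfkp was the member with a difference above 0, at 0.55 ± 0.55, higher in 5 of 6 library groups, and its Dcx-high sums reached 385 CPM in library group 4, where 1 cell held 84.0% of the Pfkp reads behind that value.

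**Figure D3:**
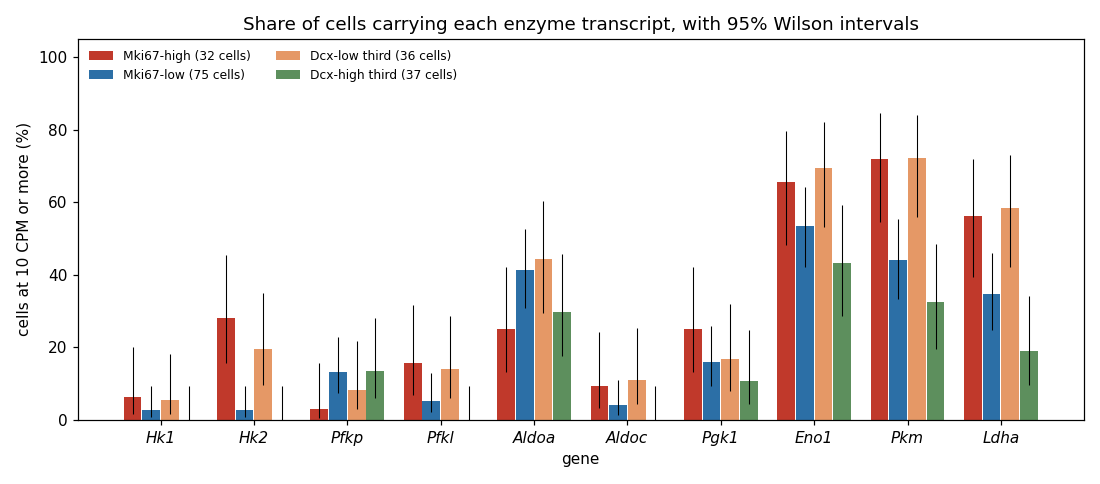
Percent of cells with each enzyme transcript at 10 CPM or more (vertical axis) in Mki67-high (32), Mki67-low (75), Dcx-low (36) and Dcx-high (37) cells, with bars from 0 and 95% Wilson intervals. Dcx-high cells have the lowest bar for Pkm (32.4%) and Ldha (18.9%) and no bar for Hk1, Hk2, Pfkl and Aldoc.

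Within Mki67-low cells, Pkm again was lower where Dcx was above its median. The sums were 18.2, 110, 2.196, 70.4, 56.2 and 4.93 CPM above the median in library groups 1 to 6. At or below it they were 413, 721, 10.1, 106, 162 and 635 CPM. The order held inside each library group although the classes overlapped, group 3 being low in both. The log2 difference was -3.04 ± 2.70, below 0 in 6 of 6 library groups, as for 1.56% of the 6677 genes tested (exact sign-flip permutation p = 0.03125, two-sided, and 0.873 after adjustment). Ldha differed by -2.44 ± 1.74, below 0 in 5 of 6. The members' median difference was -0.74, with 9 of 10 below 0, beside a median of -0.03 and 48.4% above 0 among all genes tested. By edgeR's quasi-likelihood test 0 genes were called (0%), with 336 (5.03%) at an unadjusted p under 0.05, 2.71% of those tested in the direction of Pkm. DESeq2 on the sums called 403 of the 8697 genes with an adjusted p, Hk2, Pfkl and Aldoc among them, and limma called 0. The filter of edgeR kept 6 members, and Pkm had an edgeR log2 fold change of -2.78 ± 1.26 (SE) and an adjusted p of 0.974. Both comparisons with Dcx share cells, so they do not bear on each other independently.

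The number of enzymes a cell carried moved in the same way. A cell had a median of 2 of the 10 transcripts at 10 CPM or more. The median was 3 in Mki67-high and 2 in Mki67-low cells, and 1 in Dcx-high and 3 in Dcx-low cells. No Dcx-high cell carried more than 3, whereas 8 Dcx-low cells carried 5 or more. Dcx-high cells also had fewer detected genes, with medians of 4193 and 4888, lower in 5 of 6 library groups (exact sign-flip permutation test, two-sided, p = 0.09375), and the part of this in the number of enzymes and in the Pkm and Ldha values was not tested. In the 6 cells with astroglial genes the median was 6, and 13 cells in all, 5 of them astroglial-gene cells, carried at least 5 enzymes.

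Across the 109 cells, Spearman correlations of log2(CPM + 1) between members were mostly weak. Over 45 pairs they ran from -0.20 to 0.52 with a median of 0.12, and 35 were above 0. Without the cells carrying astroglial genes the median was 0.06. The highest was Pfkl with Aldoc (0.52, with 3 cells carrying both at 10 CPM), followed by Eno1 with Pkm (0.37, with 41 cells carrying both). Eno1 and Pkm catalyse consecutive steps, and their correlation was 0.38 without the astroglial-gene cells and had a median of 0.36 within library groups. Cells share their library group, depth and number of detected genes, so these values are descriptions; the mean log2 level of the 10 members itself correlated at 0.30 with detected genes and at 0.12 with the total count.

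**Figure D4:**
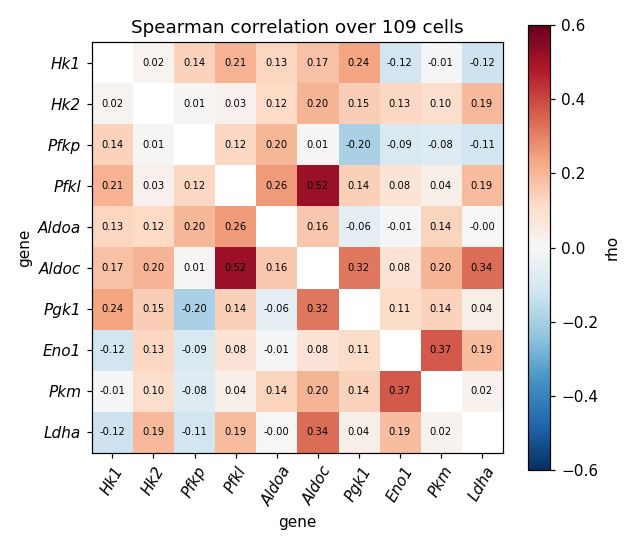
Spearman correlation between each pair of enzymes over 109 cells, from log2(CPM + 1), with red above 0 and blue below 0. Pfkl with Aldoc (0.52) and Eno1 with Pkm (0.37) are the highest values, and Pfkp with Pgk1 (-0.20) is the lowest.

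The mean log2 level of the 10 members correlated with Pcna at 0.37, with Mki67 at 0.24 and with Dcx at -0.35 over the 109 cells. Among 8162 genes with a count in at least 20% of cells, whose median correlation was 0.10, the 5 most like this mean were Dnaja3 (0.49), Dbi (0.48), Rassf2, Leo1 and Rfc2 (each 0.46). Dnaja3 encodes a mitochondrial co-chaperone, Dbi an acyl-CoA-binding protein and Rfc2 a subunit of the clamp loader of DNA replication. At the other end were Ptprs at -0.38, Dcx, Scrt2 at -0.33, Cntn2 at -0.32 and Snap25 at -0.31, where Cntn2 is an axonal adhesion molecule and Snap25 a component of the synaptic vesicle fusion machinery.

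Other genes of the pathway and its branches were read from lists of related genes. No gene of these lists was called in any of the 3 comparisons. Of 10 further glycolytic enzymes, 7 passed the filter against Mki67. Gapdh, glyceraldehyde-3-phosphate dehydrogenase, was higher in Mki67-high cells of 6 of 6 library groups, by 1.68 ± 1.35 on the log2(CPM + 1) scale, and in 5 of 6 by sums. Means higher in 6 of 6 were found for 7.88% of genes tested. Gapdh was lower in Dcx-high cells of 6 of 6, as for 4.17% of genes tested, by -2.003 ± 0.78. Among Mki67-low cells it differed by -1.29 ± 0.91, again in 6 of 6, as for 1.56%. Its sums, from 2.06 to 20.4 CPM in Dcx-high and from 26.0 to 71.8 CPM in Dcx-low cells, did not overlap. As for Pkm, the share of all genes tested with such sums is not given here. Pgam1, phosphoglycerate mutase, differed by 1.26 ± 0.85 between the Mki67 classes, and Pfkm, the muscle-type phosphofructokinase, by -0.17 ± 0.58. Gapdh and Pgam1 share 25.1% and 36.2% of their 50-base stretches with other genes. Ldhb, the B subunit of lactate dehydrogenase, which favours lactate oxidation, had no such direction, at 0.74 ± 1.78 against Mki67 and -0.32 ± 1.47 between the Dcx tertiles.

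Among 8 transporters of glucose, lactate and pyruvate, Slc16a1, a monocarboxylate transporter, had a higher mean log2(CPM + 1) in Mki67-high cells of 6 of 6 library groups. The same held for 7.88% of all genes tested. By sums Slc16a1 was higher in 5 of 6. These sums ran from 24.0 to 1266 CPM in Mki67-high and from 0.0753 to 250 CPM in Mki67-low cells, overlapping. Its log2 difference was 3.34 ± 1.17. The edgeR log2 fold change was 3.28 ± 1.74 (SE), with an adjusted p of 0.706. Slc2a3, the neuronal glucose transporter, differed by 0.21 ± 1.04 on the log2(CPM + 1) scale. Slc2a1, the widely used glucose transporter, was too low to be tested.

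Of 12 regulators, 0 were higher or lower in every library group against Mki67, and the lowest unadjusted p by edgeR belonged to Pdk3, a kinase that inhibits pyruvate dehydrogenase (log2 fold change 5.49 ± 2.41, adjusted p 0.665), and Egln1, an oxygen-sensing prolyl hydroxylase (-2.89 ± 1.41, adjusted p 0.677). The pyruvate dehydrogenase subunits Pdha1 and Pdhb differed by -0.49 ± 1.14 and 0.06 ± 2.26 on the log2(CPM + 1) scale. In the pentose phosphate pathway, G6pdx, which encodes its first enzyme, differed by 0.21 ± 1.73, and Taldo1, transaldolase, by 1.15 ± 1.76. Tkt, transketolase, was higher in Mki67-high cells of 6 of 6 library groups on that scale, by 1.85 ± 1.17, but by sums in 4 of 6, with an edgeR log2 fold change of -0.48 ± 1.28 (SE). By sums 0 of 6 tested genes of this pathway had a log2 fold change above 0. In the serine branch, Phgdh and Psat1, which encode its first 2 enzymes, had a higher mean log2(CPM + 1) in 6 of 6, by 1.82 ± 1.13 and 1.59 ± 0.86, but by sums Phgdh was higher in 5 of 6 and Psat1 in 3 of 6. Psph differed by 0.55 ± 1.50 with no such agreement. Gpd1l, a glycerol-3-phosphate dehydrogenase-like gene, differed by -0.43 ± 1.04. Gapdh, Ldhb, Slc2a1, Tkt, Phgdh and Psat1 were named after their values were seen, as were the genes least like the members' mean. Each of the genes with higher means in 6 of 6 had an adjusted exact sign-flip permutation p of 0.345. Of all genes tested, 7.88% had higher means in 6 of 6.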

How the data were processed

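Each of the 109 cells was sequenced as its own library. The authors aligned reads with STAR 2.4.1d to mm10 and counted them per gene with HTSeq 0.6.1; the annotation and the strand setting are not given in the sources used here. The deposited values are raw counts, 70.9% of them 0, for 15973 genes, and no listed gene has a count in fewer than 3 cells. The members, lists and classes were chosen with earlier results of these data known.

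Counts were summed per class and library group, filtered with filterByExpr, scaled by TMM and tested with edgeR 4.0.16 (quasi-likelihood, no covariate, called at a Benjamini-Hochberg adjusted p under 0.01, the threshold of the study). Separately, log2(CPM + 1) was averaged over the cells of a class, the classes were subtracted within each library group, and the 6 differences were given an exact two-sided sign-flip permutation test; the pseudocount of 1 understates differences of low genes. DESeq2 1.42.0, limma 3.58.1 and the other alternatives are compared in the closing section. Scripts were checked on simulated data. At a simulated coefficient of variation of 0.4, edgeR on sums recovered 98% of genes changed 4-fold and 100% of those changed 16-fold. At 1.5 it recovered 0% at either fold. The real sums had 172% in the Mki67 comparison, so a gene that was not called may still differ. Mki67 and Dcx were left out of the tests that they define.

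The text names all members, Mki67, Dcx and Pcna, from each list the called genes or otherwise the 2 genes with the lowest unadjusted p against Mki67, and the 5 genes most like the members' mean. Exon lengths, positions and shared 50-base stretches came from GENCODE vM21. Of the lists, 10 pathway genes and 6 markers, all 4 red blood cell markers among them, were not analysed here. Markers of the remaining cell types served as checks: oligodendrocyte lineage genes had a median summed level of 6.93 CPM, and Purkinje cell, microglia and endothelial genes one of 0 CPM. Same-numbered sums of a library group deviated together with correlations of 0.0496 to 0.137 in the Mki67 comparison, each the highest with its own group. The edgeR fit has no block because the methods of the study name no batch term, and a fit with the block is given for comparison. The sign-flip test compares the classes within each library group by its construction, and counts of library groups rest on that.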

Additional observations from a re-analysis of the deposited data

Results flagged for a closer look

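Of 40 sets of 6 sums (10 enzymes in the Mki67 and Dcx tertile classes), 11 held a library group farther from the others than Dixon's 95% critical value allows. All 11 flags were at the high end. The rate of 1 set in 20 behind that value holds for independent sets of normal values. These sums are skewed, some are at 0 and the sets share cells, so the flags are not measured against chance. In Mki67-high cells these were Hk1 in library group 1 (58.2 CPM, the others 0 to 2.70), Aldoa in group 2 (667 CPM, the others 0.973 to 212), Pkm in group 6 (1152 CPM, the others 173 to 464) and Ldha in group 3 (571 CPM, the others 158 to 312). In Mki67-low cells they were Hk2 in group 1 (41.1 CPM, the others at most 15.1), Aldoc in group 6 (210 CPM, the others at most 39.1) and Eno1 in group 2 (345 CPM, the others 56.6 to 158). In Dcx-high cells Pfkp in group 4 (385 CPM, the others at most 27.2) and Eno1 in group 2 (307 CPM, the others at most 59.8) stood apart. In Dcx-low cells Hk1 in group 1 (27.2 CPM, the others at most 4.98) and Pfkp in group 1 (102 CPM, the others at most 8.05) did.

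A single cell held 99% or more of the reads behind 6 of these values, those of both Hk1 sets, Aldoa, Hk2, Aldoc and Pfkp in Dcx-low cells. The Aldoc cell, at 2861 CPM, was Mki67-low and had 8 of the 10 astroglial markers at 50 CPM or more. The Eno1 values of library group 2 were spread over more cells, the highest holding 23.2% in Mki67-low and 31.9% in Dcx-high cells.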

How the results depend on the processing

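Counts of genes called depended on the tool and on whether sums, group means or cells were tested. Against Mki67, DESeq2 on the sums called 376, limma on group means 76, edgeR with DESeq2 size factors 5, cells as units 24 by edgeR and 1573 by DESeq2, and a threshold of 0.05 gave 6. Leaving out the astroglial-gene cells, or the 3 cells of unusual depth, or thinning gave 1, other class limits gave 0, and leaving out each library group gave 0 to 1. Between Dcx tertiles DESeq2 called 520 on sums and 1139 on cells, and within Mki67-low cells 403 and 871. Genes with the same sign in every library group (822, 460 and 195) became 538, 257 and 89 with medians over cells, and 1030 to 1388, 658 to 787 and 368 to 426 with a library group left out. By share of cells at 10 CPM, chosen after seeing the data, the Dcx counts were 228 and 95.

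With library group as a replicate block edgeR called 0 genes in each comparison, and limma, chosen after seeing the data, called 114 against Mki67. In the block, Pfkl was -0.68, Aldoc 3.09 and Pgk1 -0.069 against Mki67, and Aldoa 0.44 between Dcx tertiles. Sums correlated best with their own library group in 6 of 6, 5 of 6 and 5 of 6 groups, a hint from the data and not from the design.

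Of the alternative values of members, 37 reversed. Against Mki67 these were Pfkl (-0.33 to 0.93 with a library group left out, negative without group 5, -0.48 without the unusual cells, -0.24 as a mean without astroglial-gene cells), Aldoc (0.38 by limma with or without the block, -2.41 to 1.10 with a group left out, positive without group 6), Pgk1 (-0.17 to 1.26, negative without group 1, -0.14 by DESeq2 on cells), Eno1 (0.84 by limma with or without the block, -0.69 to 0.39, positive without group 2), Ldha (-0.018 unfiltered, -0.069 to 0.45, negative without groups 1, 4 or 6, -0.054 by DESeq2 on cells) and Hk1 (-0.050 to 0.41, negative without group 1). Between Dcx tertiles they were Hk2 (0.14 with other class limits), Pfkp (-0.74 to 5.61, negative without group 4), Aldoa (-0.88 to 0.55, positive without group 3, 0.11 thinned, 0.026 and 0.69 by edgeR and DESeq2 on cells) and Eno1 (0.033 and 0.50 likewise). Within Mki67-low cells they were Pfkp (-1.31 to 2.94, negative without group 4), Pgk1 (-2.06 to 0.21, positive without group 3, 0.90 with other class limits), Eno1 (0.14 by DESeq2 on cells), Hk1 (0.0078 with a pseudocount of 10, 0.30 percentage points of cells at 10 CPM, -0.18 to 0.15 and positive without group 4) and Hk2 (0.0013 by medians over cells). The cause was not tested. DESeq2 was the tool by which members were called: Hk2 (5.44 on sums and 4.74 on cells, log2 scale), Pfkp (-6.22 and -7.78) and Aldoa (-5.39, cells) against Mki67; Hk2 (-8.35 and -7.37), Pfkl (-8.93 and -7.12), Aldoc (-7.65, sums) and Hk1 (sums, at 0 in every Dcx-high sum) between Dcx tertiles; and Hk2 (-6.57, sums), Pfkl (-8.59, sums), Aldoc (-9.39, sums) and Pkm (-2.71, cells) within Mki67-low cells. Of the genes with an adjusted p, DESeq2 called 376 of 10810 on sums and 1573 of 9153 on cells against Mki67. Between Dcx tertiles it called 520 of 8623 and 1139 of 8264, and within Mki67-low cells 403 of 8697 and 871 of 7587. Calls on cells treat the cells of a library group as replicates, which they are not. As few as 2 cells stood behind a sum, which limits what 6 library groups can show.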
